A study of Mus musculus with 6 samples.

Results

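Emp1, Emp2, Emp3 and Pmp22 form the PMP22 family of small tetraspan membrane proteins, and their transcripts were followed here in tumor organoids with and without chemotherapy. The 4 genes were taken by family membership, not by a threshold on their counts, and were found among the 24190 genes of the count table through their Ensembl identifiers. All 4 passed the filter on low counts, which left 14692 genes to test. The organoids were MTO54, labelled parental, 1 mouse colorectal cancer (CRC) organoid line of the genotype labelled AKP, which both groups share. Single cells were seeded in basement membrane extract in complete stem cell medium. After 2 days the medium was replaced for 2 days by fresh medium without drug (Control, 3 libraries) or with Folfiri (3 libraries). The figure captions of the study give 4 days of chemotherapy in place of the 2 days in its methods. Folfiri combined 5FU, a thymidylate synthase inhibitor, given as 50 μg/μl in the labels, with 100 nM SN38, the active metabolite of the topoisomerase I inhibitor irinotecan. As 1 line was profiled, without stroma or a host, the values describe this culture and not CRC as a whole.

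PMP22 proteins cross the membrane 4 times and reside at the plasma membrane, at cell junctions and in the secretory pathway. PMP22, also named growth arrest-specific 3, is best known as a component of compact myelin whose gene dosage underlies inherited neuropathies, whereas the epithelial membrane proteins EMP1, EMP2 and EMP3 are found in many epithelia. In the study, Emp1 served as the marker of high relapse cells (HRCs), the residual tumor cells to which metastatic recurrence was traced, so the question put to these data was how Emp1 and its relatives behaved under chemotherapy.

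The members are alike enough to be recognised at the nucleotide level and different enough to be counted apart. The coding sequences held 160 codons in Emp1, 172 in Emp2, 163 in Emp3 and 160 in Pmp22. Pairwise nucleotide identity over the aligned coding bases was highest for Emp1 and Emp2 at 69.9% and lowest for Emp1 and Pmp22 at 60.3%, with 65.6% for Emp1 and Emp3, 60.6% for Emp2 and Emp3, 64.8% for Emp2 and Pmp22 and 64.7% for Emp3 and Pmp22. No pair of genes shared a run of 30 bases anywhere in their annotated transcripts, on either strand, and none of the 4 genes overlapped an exon of another gene. A stretch of 30 coding bases that aligned in all 4 is given here because it holds the longest run common to any pair; it begins at coding base 409 in Emp1, 442 in Emp2, 415 in Emp3 and 406 in Pmp22, is read from the GENCODE transcripts, and has in capitals the 15 bases that all 4 genes share.
Emp1: TtCatCCTGaCCTGGaTctgcTTctgttTc
Emp2: TtCatCCTGgCCTGGgTggccTTtgcctTc
Emp3: TtCgcCCTGgCCTGGgTggctTTtccacTc
Pmp22: TaCatCCTGgCCTGGgTggccTTtccccTa
In this stretch Pmp22 matched Emp2 at 26 bases, Emp3 at 24 and Emp1 at 18. The longest run, 22 bases between Emp2 and Pmp22, lies within it.

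The promoter windows of Emp1 and Emp2 are shown because these genes moved in opposite directions. Each covers 250 bases before and 50 bases after the most upstream RefSeq start on GRCm38.p6 and is written 5′ to 3′ along the gene: Emp1 at chr6:135362681-135362980 on the plus strand and Emp2 at chr16:10313919-10314218 on the minus strand. Capitals mark matches to 3 motifs that were searched on both strands, and no matches overlapped. AP-1 factors bind TGANTCA. TEAD factors bind GGAATG. The TATA box was searched as TATAAA.
Emp1: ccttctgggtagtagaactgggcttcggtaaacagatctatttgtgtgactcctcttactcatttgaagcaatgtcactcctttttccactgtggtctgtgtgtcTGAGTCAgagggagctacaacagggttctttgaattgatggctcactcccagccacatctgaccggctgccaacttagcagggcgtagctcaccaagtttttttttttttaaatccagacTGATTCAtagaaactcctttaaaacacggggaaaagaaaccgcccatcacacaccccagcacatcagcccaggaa
Emp2: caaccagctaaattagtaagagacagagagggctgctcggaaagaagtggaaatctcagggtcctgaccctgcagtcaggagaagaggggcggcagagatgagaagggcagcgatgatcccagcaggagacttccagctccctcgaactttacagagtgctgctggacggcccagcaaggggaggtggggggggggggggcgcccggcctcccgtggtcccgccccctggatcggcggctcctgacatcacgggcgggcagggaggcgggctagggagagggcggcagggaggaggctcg
The Emp1 window had 2 AP-1 matches, TGAGTCA from base -145 and TGATTCA from base -25, and a GC content of 46.7%. The Emp2 window had none of the 3 motifs and a GC content of 65.7%, against a median of 52.7% over all windows. In the corresponding windows, Emp3 (chr7:45921377-45921676, minus strand) held TATAAA from base -40, and Pmp22 (chr11:63128732-63129031, plus strand) held CATTCC, the TEAD motif on the other strand, from base -173. The windows at the other starts listed for these genes, 1 for Emp1, 1 for Emp3 and 3 for Pmp22, held none of the motifs. Of all 32851 promoter windows of this length, 7.81% held the AP-1 motif, 14.7% the TEAD motif and 13.6% the TATA box, so these matches are descriptions of the letters and not of factor binding.

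Total counts per library ranged from 22103591 to 30098210, and the 4 genes together took 20863 to 29459 counts in Control and 34427 to 36211 in Folfiri libraries. Control replicate 1 and Folfiri replicate 3 stood apart from the other libraries of their groups. The fold changes of the 4 genes and the change of the Emp1 to Pmp22 ratio are also given without both. Lgr5, the stem cell marker, was at 20.9 ± 1.54 CPM (counts normalized to library size) in Control and 3.64 ± 0.448 in Folfiri libraries, and the proliferation marker Mki67 at 735 ± 34.1 and 246 ± 29.5 (SD, n = 3). The study calls the 3 libraries of a group biological replicates, without saying whether they came from separate experiments on this 1 line, and the p-values measure the spread between these libraries.

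After Folfiri, 3 members of the family were higher and 1 was lower. Emp1, which drew the most reads, rose by 29.5%, Emp3 by 23.1% and Pmp22, which drew the fewest, by 67.8%. Emp2 fell by 40.9%. All 4 changes passed the test at an adjusted p of 0.05 (edgeR quasi-likelihood test, Benjamini-Hochberg adjustment over all genes tested), but so did 79.1% of all genes tested, 40.3% higher and 38.8% lower after Folfiri. Fewer cells of a given kind and less RNA per cell cannot be told apart in such bulk libraries.

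Emp1 (ENSMUSG00000030208, chr6:135362545-135383173, plus strand), which lies at junctions and the surface of epithelial cells, stood at 633, 699 and 667 CPM in the Control libraries and at 933, 841 and 814 CPM in the Folfiri libraries. Every Folfiri library was above every Control library, and the spread was wider after Folfiri, with group means of 666 ± 32.8 and 863 ± 62.6 CPM (SD, n = 3). These levels rest on 12965 to 27837 reads per library. The log2 fold change was 0.37 (SE 0.09, 95% confidence interval 0.18 to 0.56, edgeR adjusted p = 0.00217). Of all genes tested, 27.0% had a smaller change in either direction and 62.4% had a lower log2 fold change, so the rise of Emp1 was modest among the changes in these organoids.

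Emp2 (ENSMUSG00000022505, chr16:10281749-10313968, minus strand), known for its effect on integrin and focal adhesion signaling, stood at 398, 381 and 378 CPM in the Control libraries and at 240, 231 and 212 CPM in the Folfiri libraries. The groups lay far apart relative to their spread, at 386 ± 10.7 and 228 ± 14.2 CPM (SD, n = 3). Emp2 fell by 0.76 on the log2 scale (SE 0.07, 95% confidence interval -0.92 to -0.59, edgeR adjusted p = 4.31e-06). In size this was close to the change of Pmp22 and to the median size over all genes, as 51.6% of genes tested changed less.

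Emp3 (ENSMUSG00000040212, chr7:45918023-45921404, minus strand), the shortest gene of the family, stood at 21.2, 23.9 and 21.0 CPM in the Control libraries and at 27.2, 25.7 and 28.6 CPM in the Folfiri libraries. The highest Control and the lowest Folfiri library were 23.9 and 25.7 CPM, the narrowest gap of the 4 genes relative to the group means of 22.0 ± 1.60 and 27.1 ± 1.43 CPM (SD, n = 3). The log2 fold change was 0.30 (SE 0.09, 95% confidence interval 0.10 to 0.50, edgeR adjusted p = 0.00940), and 22.2% of genes tested changed less. With each library left out in turn the adjusted p reached 0.0447 at most, so the call was kept with little to spare.

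Pmp22 (ENSMUSG00000018217, chr11:63128982-63159547, plus strand), the myelin protein gene, stood at 8.71, 6.80 and 7.35 CPM in the Control libraries and at 13.6, 13.5 and 11.5 CPM in the Folfiri libraries. With 143 to 417 reads per library it was the most thinly counted member, yet its groups did not overlap, at 7.62 ± 0.986 and 12.8 ± 1.19 CPM (SD, n = 3). The log2 fold change was 0.75 (SE 0.13, 95% confidence interval 0.46 to 1.03, edgeR adjusted p = 0.000286), and 51.0% of genes tested changed less. Control replicate 1 and Folfiri replicate 3, the libraries that stood apart, were the highest Control and the lowest Folfiri library for this gene.

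**Figure D1:**
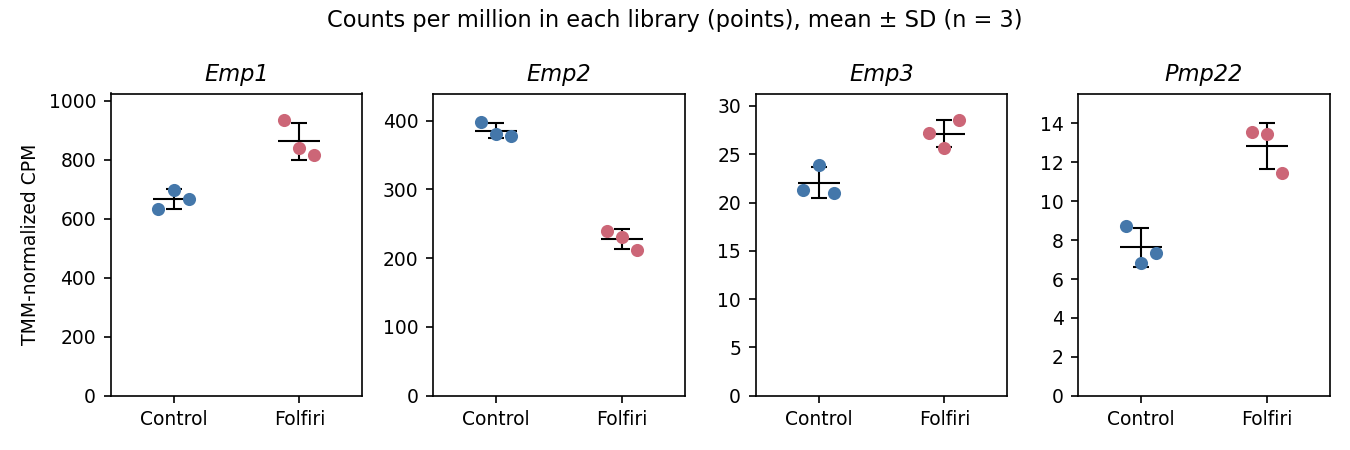
Normalized level of Emp1, Emp2, Emp3 and Pmp22 (CPM, vertical axis from 0, a scale of its own for each gene) in the 3 Control and 3 Folfiri libraries; points are libraries in replicate order, the long bar is the mean and the whiskers are ± SD. The groups do not overlap for any of the 4 genes, and Emp2 is the gene that is lower in Folfiri libraries.

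In the plot of levels by library, the groups were apart for all 4 genes, as they were for 81.4% of all genes tested. For each gene alone, an exact two-sided permutation test of the 3 against 3 libraries gave p = 0.1, the smallest value this design allows. The position of the family within the whole response is drawn in the plot of fold changes. The median log2 fold change of all genes tested was 0.02, with quartiles of -0.70 and 0.76. Emp1 and Emp3 thus lay inside the middle of the distribution, Pmp22 just below its upper quartile and Emp2 just below its lower quartile.

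**Figure D2:**
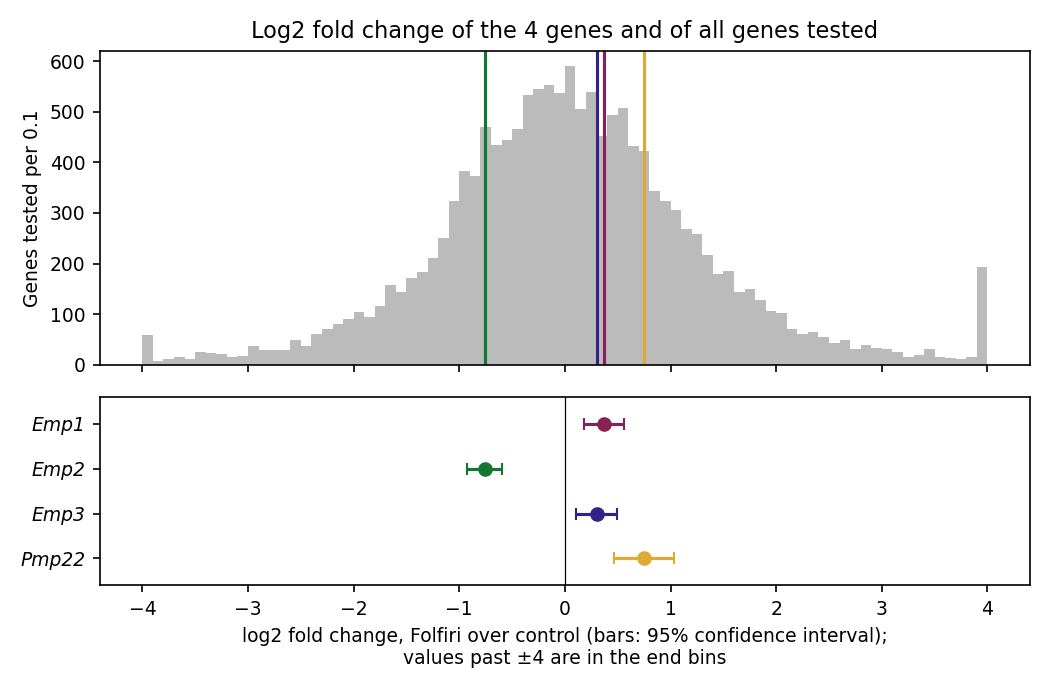
Distribution of the log2 fold change (Folfiri over Control) over the 14692 genes tested, in bins of 0.1 with values past ±4 in the end bins (top), and the log2 fold change of each family member with its 95% confidence interval (bottom, same horizontal axis). Emp1 (0.37) and Emp3 (0.30) lie near the center, Pmp22 (0.75) and Emp2 (-0.76) near the quartiles.

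The sizes of these changes depended on how the libraries were scaled. With total counts alone, which moved the median of all genes to 0.30, the log2 fold changes were 0.65 for Emp1, -0.48 for Emp2, 0.58 for Emp3 and 1.02 for Pmp22, in the same directions. A change of scaling shifts all genes by nearly the same amount, so values relative to the median of all genes could hardly differ. Under the 2 scalings these were 0.35 and 0.36 for Emp1, -0.78 and -0.78 for Emp2, 0.28 and 0.28 for Emp3 and 0.73 and 0.72 for Pmp22. Without both Control replicate 1 and Folfiri replicate 3 the log2 fold changes were 0.37 for Emp1, -0.69 for Emp2, 0.23 for Emp3 and 0.94 for Pmp22, all still past the threshold.

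Emp1 and its relatives were next compared within each library, by the number of Emp1 reads for every read of the relative, a ratio that no scaling of the libraries can alter. Emp1 gained on Emp2, kept a similar ratio to Emp3 and lost ground to Pmp22, although the last difference rested on few libraries. The ratio of every tested gene to Emp1 was fitted in the same way, and 77.0% of them differed between the groups. Against Emp1, 34.2% of genes tested changed by more than Emp2 did, 95.7% by more than Emp3 and 74.7% by more than Pmp22.

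There were 1.59, 1.83 and 1.76 Emp1 reads per Emp2 read in the Control libraries and 3.89, 3.63 and 3.84 in the Folfiri libraries. The ratio rose 2.19-fold (log2 difference 1.13, SE 0.10, 95% confidence interval 0.92 to 1.35, edgeR adjusted p = 8.60e-11). The exact two-sided permutation test over libraries gave p = 0.1, or 0.15 after Benjamini-Hochberg adjustment over the 3 pairs.

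Per Emp3 read, there were 29.8, 29.3 and 31.8 Emp1 reads in the Control libraries and 34.4, 32.7 and 28.5 in the Folfiri libraries. Folfiri replicate 3 lay below and the other Folfiri libraries above all Control libraries. No difference was detected (log2 difference 0.07, SE 0.13, edgeR adjusted p = 0.642, exact permutation p = 0.5, also 0.5 after adjustment over the 3 pairs). The 95% confidence interval of -0.20 to 0.33 leaves room for a moderate change of this ratio in either direction.

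Per Pmp22 read, there were 72.6, 102.8 and 90.7 Emp1 reads in the Control libraries and 68.7, 62.5 and 71.0 in the Folfiri libraries. All Folfiri libraries were lower, but Control replicate 1 lay close to them. The log2 difference was -0.37 (SE 0.16, 95% confidence interval -0.70 to -0.04, edgeR adjusted p = 0.0413, exact permutation p = 0.1, or 0.15 after adjustment over the 3 pairs). With single libraries left out, the call was kept only without Control replicate 1 (-0.53, edgeR adjusted p = 0.000549) and was lost without each of the other 5, with an adjusted p of up to 0.216. Without both Control replicate 1 and Folfiri replicate 3 the difference was -0.56 (edgeR adjusted p = 0.000126). With the replicate number as a block the call was lost (-0.38, edgeR adjusted p = 0.0781).

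**Figure D3:**
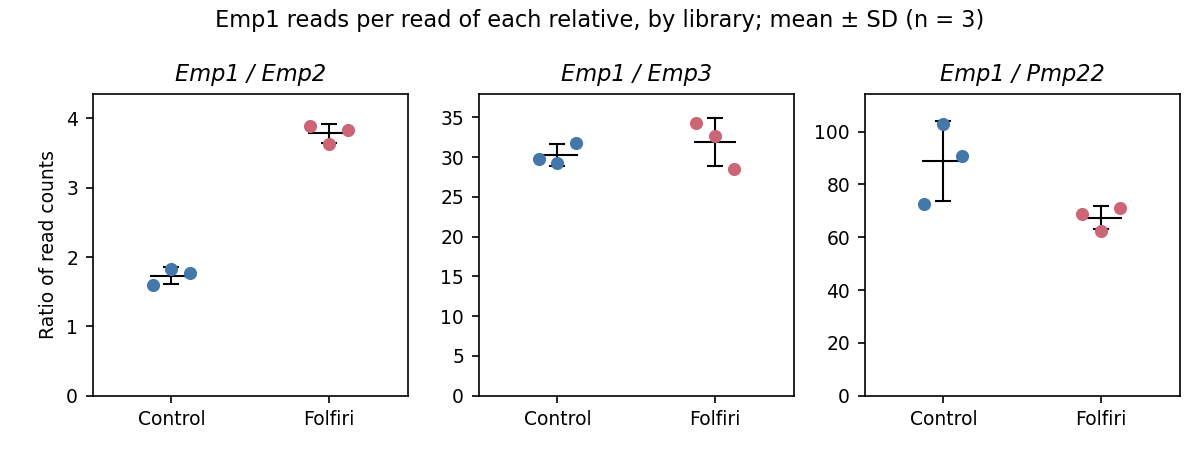
Emp1 reads per read of Emp2, Emp3 and Pmp22 (ratio of counts, vertical axis from 0) in the 3 Control and 3 Folfiri libraries; points are libraries, the long bar is the mean and the whiskers are ± SD. The Emp2 ratio is higher in every Folfiri library, the Emp3 ratio overlaps, and the Pmp22 ratio is lower in every Folfiri library with Control replicate 1 nearest to them.

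To set levels of different genes side by side, CPM were divided by the length of all annotated exons of each gene, 5935 bases for Emp1, 8644 for Emp2, 1071 for Emp3 and 2354 for Pmp22. On this scale of CPM per kb, the Control organoids held Emp1 at 112 ± 5.53, Emp2 at 44.6 ± 1.24, Emp3 at 20.6 ± 1.49 and Pmp22 at 3.24 ± 0.419 (SD, n = 3). The order Emp1, Emp2, Emp3, Pmp22 held in every Control library. After Folfiri the levels were 145 ± 10.5 for Emp1, 26.4 ± 1.65 for Emp2, 25.3 ± 1.34 for Emp3 and 5.45 ± 0.504 for Pmp22. Emp1 remained first and Pmp22 last, whereas Emp2 and Emp3 could no longer be told apart, with a ratio of 2.18 ± 0.177 in Control and 1.04 ± 0.107 in Folfiri libraries (0.921 to 1.12).

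The order of Emp2 and Emp3 after Folfiri hung on the length assigned to Emp2, whose longest transcript retains an intron. With the longest protein-coding transcript of each gene (3440 bases for Emp2), a choice made after seeing the data, Emp2 was 4.003 times the level of Emp3 in Control and 1.92 times in Folfiri libraries. By exonic length, Emp1 went from the 95.6 to the 97.4 percentile of genes tested, Emp2 from 89.9 to 84.7, Emp3 from 79.7 to 84.0 and Pmp22 from 41.8 to 51.4.

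The make-up of the family total shifted accordingly. Emp1 supplied 62.1 ± 1.37% of the summed CPM per kb in Control and 71.7 ± 0.911% in Folfiri libraries, and Emp2 supplied 24.7 ± 1.29% and 13.0 ± 0.432% (SD, n = 3). The share of Emp3 was 11.4 ± 0.492% and 12.5 ± 1.10%, with overlapping groups, and that of Pmp22 1.80 ± 0.281% and 2.69 ± 0.184%. In percentage points, the share of Emp1 was 9.63 higher after Folfiri and that of Emp2 fell by 11.7, which the plot of shares displays library by library.

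**Figure D4:**
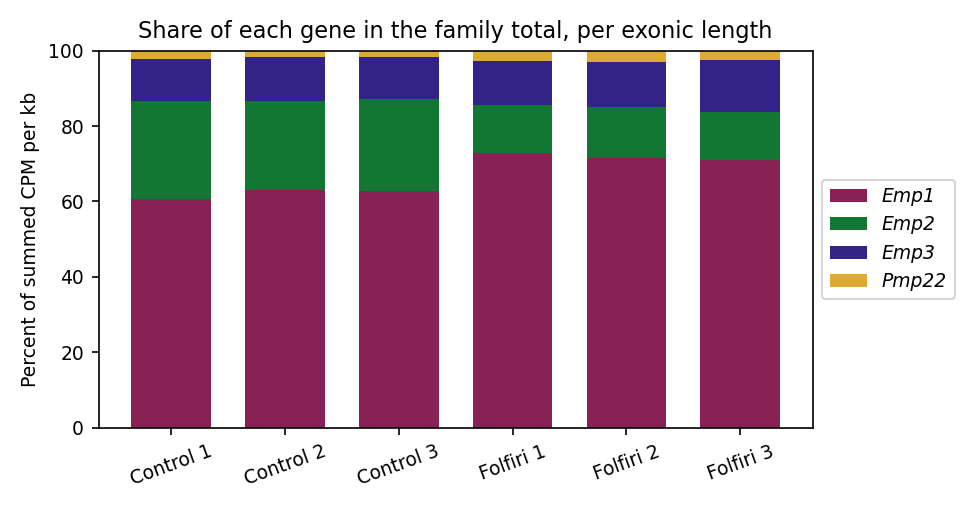
Share of each gene in the summed CPM per kb of exonic length of Emp1, Emp2, Emp3 and Pmp22 (percent, vertical axis), 1 bar per library. Emp1 makes up 62.1 ± 1.37% in Control and 71.7 ± 0.911% in Folfiri libraries, and Emp2 24.7 ± 1.29% and 13.0 ± 0.432%.

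Among more distant relatives of the family, of 14 genes listed (the lens gene Lim2, the leukocyte gene Nkg7, the calcium channel gamma subunits, Perp and several TMEM genes), 10 were in the table and only Perp, a desmosome gene, was tested. Perp fell from 178 ± 19.0 to 130 ± 4.32 CPM (log2 fold change -0.45, edgeR adjusted p = 0.00057). Among the claudins, tetraspan proteins of tight junctions, 10 of 24 were tested, 3 rose and 5 fell, where 40.3% of all genes tested rose and 38.8% fell. Their median log2 fold change of -0.20 became 0.07 with total counts alone, against 0.02 and 0.30 for all genes, and 4 were then higher and 4 lower, against 7322 and 4250 of the 14692 genes tested. Cldn4 rose from 189 ± 16.3 to 308 ± 28.2 CPM (0.71) and the low-count Cldn23 from 0.924 ± 0.185 to 1.58 ± 0.255 (0.75). Cldn2, which forms cation pores, fell from 2.32 ± 0.393 to 0.256 ± 0.0301 CPM (-3.17), Cldn8 from 31.3 ± 1.41 to 16.5 ± 0.449 (-0.93) and Cldn7 from 285 ± 33.7 to 169 ± 6.19 (-0.75).

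Of 13 listed genes for proteins that bind PMP22 family proteins or handle them in the cell, 12 were tested, 5 rose and 6 fell, with a median log2 fold change of -0.30 (-0.02 with total counts alone, where 6 were higher and 6 lower). Of all genes tested, 40.3% were higher and 38.8% lower, and with total counts alone 7322 were higher and 4250 lower of 14692. The rises included P2rx7, an ATP-gated channel, from 0.163 ± 0.0487 to 2.29 ± 0.232 CPM (3.75; it overlaps the microRNA gene Mir8115 on the same strand), the junction gene Ocln from 37.4 ± 0.979 to 95.9 ± 6.59 (1.36), the kinase gene Src from 67.3 ± 1.65 to 115 ± 5.28 (0.78), and Tjp1 (0.50). The falls included the caveolae gene Cav1 from 87.0 ± 10.1 to 29.4 ± 1.84 CPM (-1.56), the focal adhesion kinase gene Ptk2 from 142 ± 1.46 to 68.5 ± 4.41 (-1.05), and the integrin genes Itga6 from 515 ± 3.90 to 267 ± 21.1 (-0.95), Itgb4 (-0.80) and Itgav (-0.66). Of the genes that retain or degrade misfolded PMP22, the chaperone gene Canx fell (-0.52), Rer1 did not pass the test (-0.08, edgeR adjusted p = 0.33, but 0.20 and past the threshold with total counts alone), and the call for the ubiquitin ligase gene Syvn1 (0.21) was lost with DESeq2, without the filter on low counts and without each library except Control replicate 2 (edgeR adjusted p of up to 0.0882). Itgb4, Itgav and Syvn1 overlap B230344G16Rik, Gm13684 and Mrpl49 on the opposite strand.

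Of the genes the study named beside Emp1 as high relapse cell genes, a list of 11, which is not complete, was followed, and since they came from the same study this list is not independent of it. Of the 11, 10 were tested, 5 rose and 4 fell, against 40.3% and 38.8% of all genes tested, with a median log2 fold change of 0.23. With total counts alone the median was 0.51 and 6 rose and 1 fell, a scaling under which 7322 of all 14692 genes were higher and 4250 lower. Plaur, the urokinase receptor, rose from 36.3 ± 0.868 to 70.5 ± 2.86 CPM (0.96), the protocadherin gene Pcdh1 from 60.4 ± 1.76 to 105 ± 4.42 (0.79) and Cldn4 as given above, with log2 fold changes above that of Emp1. Itga2 (0.50) and Anxa1 (0.46) rose by amounts near that of Emp1. The laminin chain gene Lama3 fell from 41.7 ± 1.71 to 13.3 ± 2.25 CPM (-1.65; it overlaps Gm29200 on the opposite strand), and Dsc2 (-0.34) and Jup (-0.30) fell by less. The calls for Dsc2 and Jup were lost with total counts alone (-0.06, edgeR adjusted p = 0.40, and -0.02, edgeR adjusted p = 0.77), and Krt17 was too low to test. Ddr1, Itga3 and Itgb4, which the study also named and the list does not hold, had log2 fold changes of -0.39, -0.21 and -0.80 and passed the test, but Ddr1 (-0.11, edgeR adjusted p = 0.15) and Itga3 (0.063, edgeR adjusted p = 0.31) lost their calls with total counts alone, and Itga3 also without Control replicate 2 or Folfiri replicate 2.

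**Figure D5:**
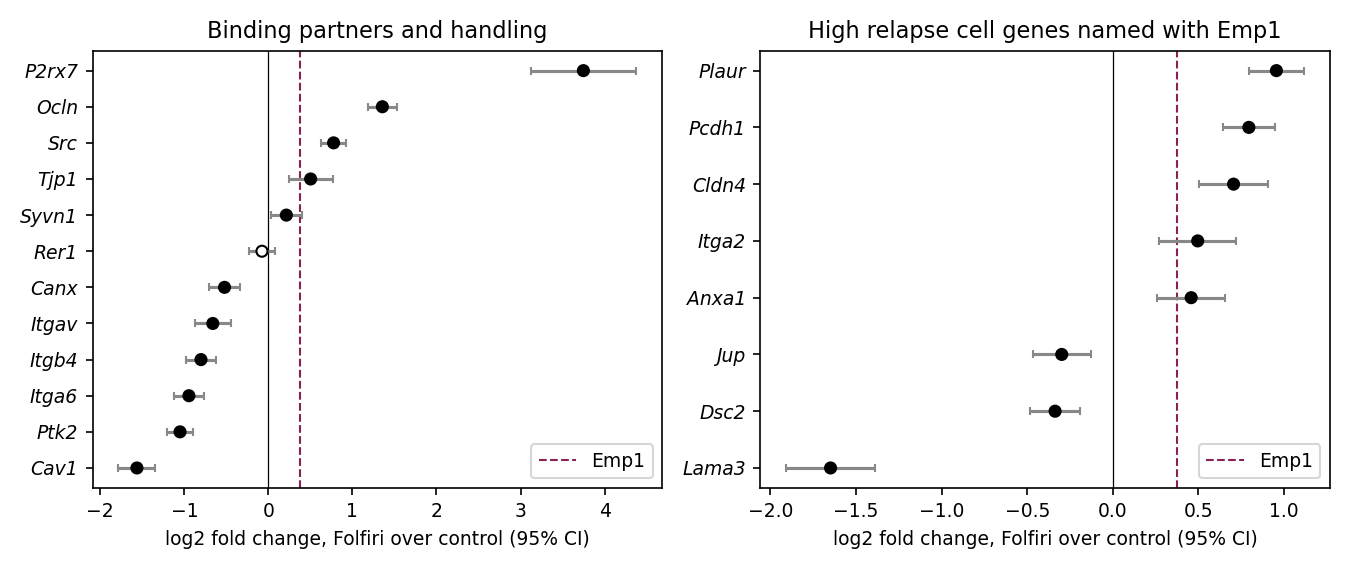
Log2 fold change (Folfiri over Control, horizontal axis) with its 95% confidence interval for the tested genes that bind or handle PMP22 family proteins (left) and 8 of the 10 tested high relapse cell genes named beside Emp1 (right); filled points passed the test, open points did not, and the dashed line is Emp1 at 0.37. P2rx7 (3.75) and Plaur (0.96) are the highest, Cav1 (-1.56) and Lama3 (-1.65) the lowest.

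Of 5 growth arrest-specific genes other than Pmp22, 4 were tested, 1 rose and 2 fell, against 40.3% and 38.8% of all genes tested, with a median log2 fold change of -0.86. Gas5, a noncoding RNA gene whose exons overlap small RNA genes such as Snord47 on the same strand, rose from 169 ± 23.1 to 263 ± 27.8 CPM (0.64), while Gas2 fell from 7.95 ± 1.47 to 2.86 ± 0.478 (-1.48) and Gas7 from 1.59 ± 0.0685 to 0.591 ± 0.238 (-1.43). Gas2 and Gas7 overlap Fancf and Glp2r on the opposite strand, and as no source states the strand setting their reads are uncertain. Of the stem cell and differentiation genes, Lgr5 (-2.52), Smoc2 (-2.46) and Mki67 (-1.58) fell, whereas Krt20, a differentiation marker, was at 1.44 ± 0.0716 and 1.31 ± 0.233 CPM (-0.13, edgeR adjusted p = 0.56, and 0.14 with total counts alone).

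The labelled epithelial origin was checked against markers, and the counts of markers called stand beside 40.3% of all genes tested that were higher and 38.8% that were lower. Of 10 intestinal epithelial markers 9 were tested, with 1 higher and 6 lower after Folfiri (1 and 5 with total counts alone), and their summed level was 6319 to 7370 CPM in Control and 4894 to 5077 CPM in Folfiri libraries. Epcam (-0.94), the intestinal transcription factor gene Cdx2 (-1.53) and Lgals4 (-2.27) fell as Emp2 did, while Cdh1, at 0.21, lost its call with a replicate block (edgeR adjusted p = 0.0658), without the filter on low counts and without Control replicate 2 or 3 or Folfiri replicate 1 or 2 (edgeR adjusted p of up to 0.149). Schwann cell and neuron markers, to which Pmp22 would belong in nerve, summed to 3.96 to 4.92 CPM in Control and 6.87 to 8.92 CPM in Folfiri libraries, with 3 of 8 tested, 1 higher (Tubb3, 2.26) and 2 lower, and Sox10 at 0 in all Control libraries. Fibroblast and muscle markers summed to 74.6 to 93.0 and 19.3 to 21.0 CPM, mostly Vim, with 4 of 9 tested, 2 higher and 2 lower, and Col3a1 at 0 in Control. Immune markers summed to 21.7 to 26.4 and 22.4 to 23.5 CPM, mostly Cd68, with 3 of 8 tested and 2 higher, and endothelial markers to 72.2 to 124.6 and 65.7 to 76.4 CPM, mostly Cdh5, with 2 of 4 tested and neither called. The part of these shifts in the family's changes was not tested.

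The nearest tested protein-coding genes on either side did not share the members' changes in a common way. Next to Emp1, Pbp2, 52140 bases away, rose from 0.881 ± 0.464 to 9.76 ± 1.38 CPM (3.42), and Gm8994, 944366 bases away, rose by 0.42, a call lost with DESeq2, with a replicate block and without the filter on low counts. Next to Emp2, which fell, Atf7ip2 (30271 bases, 0.99) and Tekt5 (43980 bases, 9.53 ± 0.614 to 19.2 ± 0.454 CPM, 1.01) both rose. Next to Emp3, which rose, Tmem143, 610 bases away, fell from 10.6 ± 0.405 to 3.53 ± 0.332 CPM (-1.58), and Ccdc114, 2668 bases away, rose (1.49; it overlaps Gm45442 on the opposite strand). Next to Pmp22, Hs3st3b1, 726245 bases away, fell from 99.0 ± 3.08 to 26.6 ± 4.17 CPM (-1.90), and Tvp23b, 212202 bases away, did not pass the test (-0.12, edgeR adjusted p = 0.165, and 0.16 with total counts alone). Emp2 and its neighbors thus moved in opposite directions, and so did Emp3 and Tmem143, whose annotated ends are the closest.

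The genes whose levels ran most nearly parallel to each member over the 6 libraries were sought among the 9474 genes that averaged 10 CPM or more, by the smallest SD of the log2 ratio to the member. For Emp1 these were Hps5 (SD 0.04, Pearson r = 0.991 over 6 libraries; 16.5 ± 0.524 to 21.0 ± 0.846 CPM), a lysosome-related organelle gene, then Fam160b2, Eva1c, Cbx6, which overlaps Npcd on the same strand, and the splicing gene Prpf6, with log2 fold changes of 0.32 to 0.42. For Emp2 the closest was Herc2 (SD 0.01; 48.0 ± 1.52 to 28.6 ± 1.84 CPM), a ubiquitin ligase gene, then Ppp6r3 and Gtf2i. Ppp6r3 overlaps Gm48696 on the opposite strand. For Emp3 these were 2310061I04Rik and Spindoc, which overlap Gm16279 and 1700105P06Rik on the opposite strand, and Nek8, and for Pmp22 Ube3c (SD 0.04; 129 ± 16.8 to 214 ± 18.7 CPM), Dennd4a and Atxn1l. Likeness over 6 libraries in 2 groups reflects mainly a like fold change, which many genes have here, and is given as a description.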

How the data were processed

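RNA was purified from the organoids, poly(A) selected and made into libraries by the authors, who aligned the reads with STAR 2.5.2 to the mouse genome (GRCm38) with the GENCODE vM25 annotation, sorted the alignments and counted reads per gene with Rsubread. The counts deposited by the authors are raw, not normalized and held for 3 Control and 3 Folfiri libraries. The strand setting and the treatment of reads with several positions are not given in the sources used here, so overlapping genes are named as such.

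Identifiers were matched to the GENCODE mouse release 21 annotation of the same build, which gave a symbol to 24168 of 24190 genes; exonic lengths also come from this earlier release. Low counts were removed with filterByExpr, libraries were scaled by TMM, and groups were compared with the quasi-likelihood test of edgeR 4.0.16 in R 4.3.3 with Benjamini-Hochberg adjustment over all genes tested, without a block. CPM are TMM-normalized. Emp1 was compared with its relatives in the same test with the logarithm of the Emp1 count as the offset for every other gene, so that each coefficient is a change of the ratio to Emp1. The scripts were tested on simulated data. The labels state no pairing of libraries by replicate number. Same-numbered libraries had correlations of deviations of 0.0267, -0.117 and 0.0393, which with 3 libraries per group cannot show whether they were paired. DESeq2 1.42.0, other scalings and filters, a replicate block and left-out libraries served as alternatives, and limma 3.58.1 on the log2 ratios for Emp1 against its relatives. Total counts of 22103591 to 30098210 per library leave counting error small for Emp1 and Emp2 and larger for Emp3, with 408 to 941 reads per library, and Pmp22, with 143 to 417, and intervals of a fit cover the spread between libraries.

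Members and gene lists were chosen with earlier results of these data known, and no list was tested as a set. Within each list, the genes named with values were the largest rises and falls past the threshold among genes averaging 1 CPM or more; others are named as further members, and neighbors and parallel genes follow fixed rules of distance and of the SD of the log2 ratio. Coding sequences were aligned with Biopython 1.88, and promoter windows are from RefSeq. Some genes are counted in their lists but not reported here by name.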

Additional observations from a re-analysis of the deposited data

How the results depend on the processing

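The direction and call of Emp1, Emp2, Emp3 and Pmp22 were kept under every scaling, filter and test tried and with each library left out, with log2 fold changes of 0.32 to 0.42, -0.79 to -0.71, 0.26 to 0.35 and 0.66 to 0.86 over the left-out libraries. With the replicate number as a block they were 0.37, -0.76, 0.30 and 0.75, also past the threshold. The difference between Emp1 and Emp2 (1.07 to 1.18 over the left-out libraries) was kept as well, and that between Emp1 and Emp3 (0.01 to 0.15) never passed the threshold. The difference between Emp1 and Pmp22 lost its call under the block (-0.38, edgeR adjusted p = 0.0781) and ranged from -0.53 to -0.26 over the left-out libraries; without both Control replicate 1 and Folfiri replicate 3, an alternative added after seeing the data, it was -0.56. The block changed no other call of these results. Of the genes outside the family, Tvp23b (0.16 in place of -0.12), Rer1 (0.20 in place of -0.08), Itga3 (0.063 in place of -0.21) and Krt20 (0.14 in place of -0.13) changed sign with total counts only, a scaling that moved the median of all genes from 0.02 to 0.30. The number of genes that differed was 11623, 11023 to 12313 over the left-out libraries, and 7739 with a mean of at least 10 CPM, where fewer genes were tested.

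Levels between genes moved with the length used. With the longest transcript, and with the longest protein-coding transcript, which was added after seeing the data, Emp1 was respectively 3.13 and 2.04 times Emp2 in Control and 6.85 and 4.47 times in Folfiri libraries. With either length it was 8.16 and 8.58 times Emp3 and 55.5 and 42.2 times Pmp22 in Control and Folfiri libraries. Emp2 was respectively 2.62 and 4.003 times Emp3 in Control and 1.26 and 1.92 times in Folfiri libraries. With 3 libraries per group no exact permutation test could go below 0.1, and at 143 to 417 reads per library Pmp22 was the member most limited by depth.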
